A study of Mus musculus with 9 samples.

Results

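Cholesterol synthesis was followed through 8 genes in mouse kidney: the enzyme genes Hmgcs1, Idi1, Fdft1, Sqle, Cyp51 and Dhcr7 and the regulator genes Srebf2 and Insig1. They are a list of names given for the pathway, chosen with earlier results of these data known. They were looked up by gene symbol in a deposited table of 54532 genes, and 8 of 8 were found. None of the 8 encodes a receptor or transporter that takes up sterol, so uptake is covered below by other genes of the pathway.

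The samples are kidneys of male C57BL/6J mice aged 4 months, 3 libraries in each of 3 groups. Hindlimb-unloaded mice given 4-phenylbutyric acid (4-PBA, a chemical chaperone that also inhibits histone deacetylases) injected into the peritoneum (100 mg per kg and day) are called PBA1, PBA2 and PBA3. Hindlimb-unloaded mice given vehicle are called HU1, HU2 and HU3, and ground controls with no treatment GC1, GC2 and GC3. Hindlimb unloading raises the hind limbs off the ground and models disuse and microgravity. The study asked whether unloading stresses the endoplasmic reticulum and injures the kidney, and whether 4-PBA prevents it. As the ground controls had no vehicle, unloading and vehicle cannot be told apart in HU against GC. How long the mice were unloaded is not given in the sources used here, nor is it stated that each library is 1 mouse, so the p-values measure the spread between these libraries only.

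Cells make cholesterol from acetyl-CoA through mevalonate and squalene, largely on the membrane of the endoplasmic reticulum. The genes of this pathway share a transcription factor, SREBP2 (encoded by Srebf2), which is held in that membrane by SCAP and the INSIG proteins while sterol is plentiful. When sterol is scarce, SREBP2 moves to the Golgi, is cut there and enters the nucleus, where it binds sterol regulatory elements in the promoters of enzyme genes. In the kidney, cholesterol is a main lipid of the tubule membranes, and the proximal tubule also takes up filtered lipoproteins and carrier proteins through megalin (encoded by Lrp2).

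Promoters are shown for the 2 members with the highest levels, Hmgcs1 and Cyp51. These 2 genes, like Dhcr7 and Fdft1, were lower in every HU than in every GC library, as described below. Of the 2 promoters, only 1 holds the form of the sterol regulatory element searched for. Both are from RefSeq on GRCm38.p6, written 5′ to 3′ on the gene's strand, with matches to 3 motifs in capitals. The motifs, searched on both strands, were TCACNCCAC (a form of the sterol regulatory element), CCAAT (the NF-Y box, which reads ATTGG on the other strand) and GGGCGG (the Sp1 box, which reads CCGCCC on the other strand).
Hmgcs1, chr13:119690101-119690350, plus strand: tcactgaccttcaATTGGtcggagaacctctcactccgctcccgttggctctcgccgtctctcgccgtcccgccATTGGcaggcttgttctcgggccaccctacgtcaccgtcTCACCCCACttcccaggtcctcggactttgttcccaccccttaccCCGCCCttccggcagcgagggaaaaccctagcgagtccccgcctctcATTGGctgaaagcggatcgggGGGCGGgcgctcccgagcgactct
Cyp51, chr5:4104747-4104947, minus strand: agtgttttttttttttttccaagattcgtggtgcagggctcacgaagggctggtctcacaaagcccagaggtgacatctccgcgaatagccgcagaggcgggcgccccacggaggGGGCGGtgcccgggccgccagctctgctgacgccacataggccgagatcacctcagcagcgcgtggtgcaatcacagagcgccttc

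The Hmgcs1 stretch ends at the base before the RefSeq start and holds 1 sterol regulatory element, at position -137 from that start, with 3 NF-Y boxes and 2 Sp1 boxes. The Cyp51 stretch runs over positions -250 to -50 and holds 1 Sp1 box and no other match; its single NF-Y box lies outside the stretch, at -29. No 2 matches overlapped in either stretch. RefSeq promoters (250 bases before to 50 after a start) were matched for 6 of the 8 members, not for Sqle and Fdft1. The form TCACNCCAC of the sterol regulatory element was found in 1 of these 6, against 1.24% of all 32851 promoters of the table. The NF-Y box was found in 6 of 6, against 37.4% of promoters, and the Sp1 box in 6 of 6, against 35.7%, where Dhcr7 counted as matched if any of its 3 promoters held the motif. A match describes the letters of this window and no binding was measured. Other forms of the sterol regulatory element were not searched for, so a promoter without a match, such as that of Cyp51, can still hold one.

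The libraries differed in composition, and this touches the results below. Reads assigned to genes numbered 7595631 to 15141784 per library. Reads from the mitochondrial genome took 15.2%, 13.7% and 67.1% in PBA1 to PBA3, 63.7% to 79.3% in HU libraries, and 18.9%, 14.8% and 49.7% in GC1, GC2 and GC3, so that PBA3 and GC3 stood apart from their groups. Kidney markers were present, as no marker of the proximal tubule, the thick limb and distal tubule or the collecting duct was under 1 FPKM (reads per gene length, scaled per library) in all 9 libraries. The summed level of 11 proximal tubule markers was 8656 to 57944 FPKM in PBA libraries (lowest in PBA3), 2717 to 3406 FPKM in HU libraries and 49751 to 60738 FPKM in GC libraries, and without the most abundant one, Kap, it was 686 to 2418 FPKM in PBA, 350 to 544 FPKM in HU and 2319 to 2631 FPKM in GC libraries. Fibroblast and mesenchymal markers summed to 13.7 to 238 FPKM in PBA libraries (highest in PBA3), 127 to 278 FPKM in HU libraries and 16.3 to 46.8 FPKM in GC libraries. Adrenal cortex markers, whose cells make steroids from cholesterol, summed to 0.823 to 5.32 FPKM in PBA, 0 to 3.87 FPKM in HU and 0.355 to 5.88 FPKM in GC libraries, and Cyp11b2 and Nr5a1 were listed at 0 in all 9. Of these 9 markers, 7 were under 1 FPKM in all libraries. Mrap alone had 3.55, 2.44 and 4.86 FPKM in PBA3, HU2 and GC2, the libraries with the highest sum of their groups. These libraries also had the highest adipocyte marker sum of their groups, at 403, 16.3 and 384 FPKM, and the source of Mrap was not tested. In bulk kidney, fewer cells of a type and less RNA per cell cannot be told apart.

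The 8 genes spanned a wide range of levels. In ground controls Hmgcs1 was highest, at 73.3 ± 4.95 FPKM, and Cyp51 next, at 38.5 ± 12.7 FPKM (SD, n = 3 each), and neither range overlapped the next gene's. Fdft1 (6.67 FPKM), Srebf2 (6.17 FPKM), Insig1 (6.16 FPKM) and Sqle (6.09 FPKM) followed, each overlapping its neighbour in the order. Sqle also overlapped Dhcr7 (2.80 FPKM), while Dhcr7 and Idi1, the lowest at 1.74 FPKM, did not overlap. Hmgcs1 and Cyp51 also led in PBA and HU kidneys, but overlapped each other in PBA kidneys (55.5 ± 21.8 and 30.2 ± 12.9 FPKM) and not in HU kidneys (33.2 ± 4.81 and 13.1 ± 1.51 FPKM; SD, n = 3 each). Next in order were Srebf2 in PBA kidneys (6.88 FPKM) and Insig1 in HU kidneys (7.28 FPKM), and both overlapped the gene after them. Dhcr7 was lowest in PBA kidneys (2.19 FPKM) and in HU kidneys (0.924 FPKM), overlapping Idi1 in both.

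**Figure D1:**
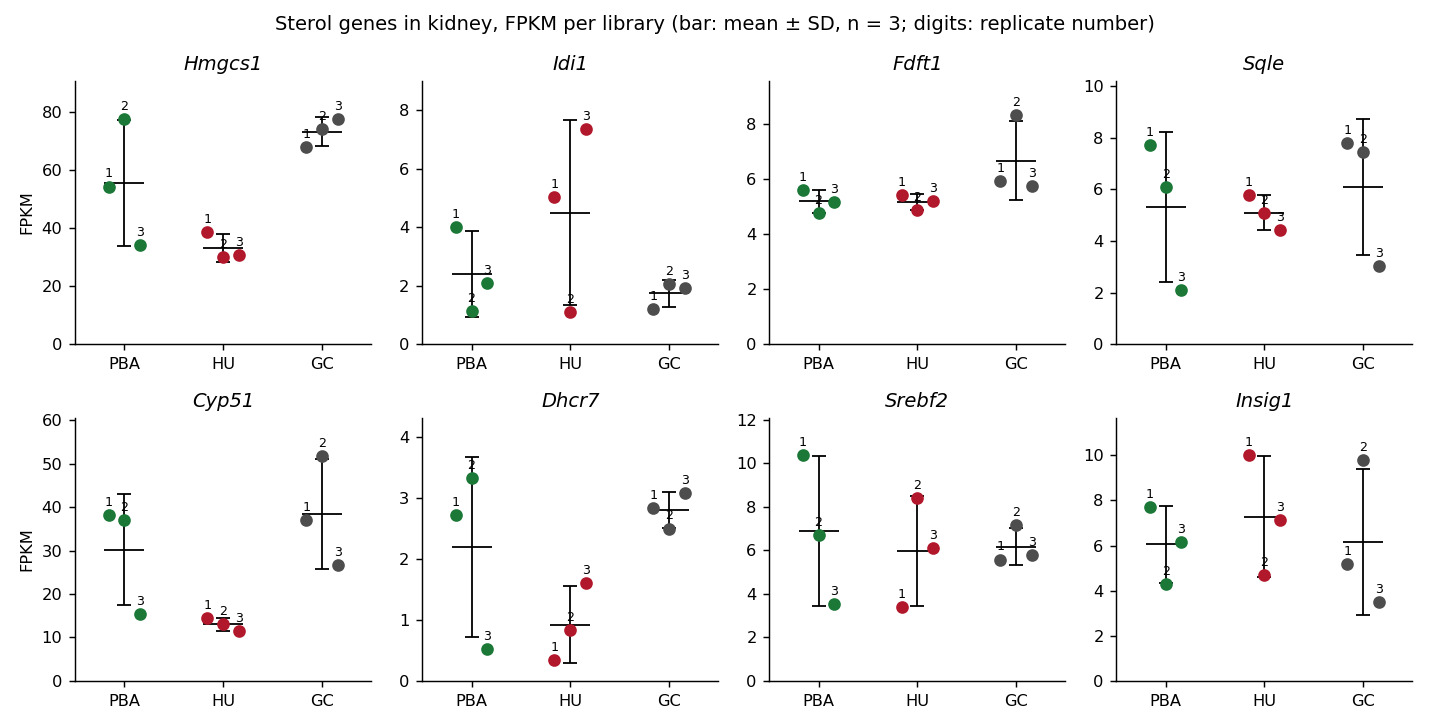
Level of each of the 8 genes in each of the 9 libraries (FPKM, linear axes from 0 with their own range per gene), HU + 4-PBA left of HU + vehicle and ground control; points are libraries, numbered by replicate, and bars group means ± SD. Cyp51 stands at 11.5 to 14.5 FPKM in HU kidneys, below all PBA and GC libraries, whereas Insig1, Srebf2 and Sqle overlap between all groups.

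The early step was represented by Hmgcs1, which encodes the cytosolic HMG-CoA synthase, an early enzyme of the mevalonate branch. Hmgcs1 (ENSMUSG00000093930; mm10 chromosome 13, 119690379 to 119708260, plus strand) had 54.4, 77.8 and 34.3 FPKM in PBA1 to PBA3, 38.8, 30.1 and 30.8 FPKM in HU1 to HU3, and 67.9, 74.3 and 77.6 FPKM in GC1 to GC3. All HU libraries lay below all GC libraries, PBA1 and PBA2 lay above all HU libraries, and PBA3 lay within the HU range. The HU mean was 0.453 times the GC mean. The log2 difference of HU minus GC, on log2(FPKM + 1), was -1.13 ± 0.32 (SE; 95% interval -1.83 to -0.42; limma adjusted p = 0.0519), which missed the threshold of 0.05. The difference of PBA minus HU was 0.66 ± 0.32 (SE; limma adjusted p = 0.279). Both results depended on the libraries in the fit. Without PBA3, which enters HU against GC only through the shared estimate of spread, the limma adjusted p of HU against GC was 0.0125 (0.0370 without PBA2). With each library left out in turn, HU against GC missed the threshold in 7 of 9 fits (limma adjusted p up to 0.145), those without any 1 HU or GC library included. PBA minus HU was 0.96 without PBA3 (limma adjusted p = 0.0468) and missed the threshold in 8 of 9 such fits (up to 0.642).

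Idi1 and Fdft1 stand between mevalonate and squalene. Idi1, which encodes the isomerase that interconverts the isoprene building blocks (ENSMUSG00000058258; chromosome 13, 8885501 to 8892451, plus strand), had 4.01, 1.12 and 2.10 FPKM in PBA1 to PBA3, 5.02, 1.10 and 7.36 FPKM in HU1 to HU3, and 1.22, 2.06 and 1.93 FPKM in GC1 to GC3. HU1 and HU3 were the highest of the 9 libraries and HU2 the lowest, a value that rested on 12 reads, so the groups overlapped. The log2 differences were -0.56 ± 0.50 for PBA minus HU and 0.80 ± 0.50 for HU minus GC (SE; limma adjusted p = 0.570 and 0.311).

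Fdft1 encodes squalene synthase, the first enzyme committed to sterols (ENSMUSG00000021273; chromosome 14, 63145150 to 63179578, minus strand). It had 5.62, 4.79 and 5.16 FPKM in PBA1 to PBA3, 5.43, 4.86 and 5.20 FPKM in HU1 to HU3, and 5.95, 8.33 and 5.75 FPKM in GC1 to GC3. It had the smallest standard error of the 8 members, and every PBA and every HU library lay below every GC library. The log2 difference was 0.00 ± 0.23 for PBA minus HU (95% interval -0.50 to 0.51) and -0.30 ± 0.23 for HU minus GC (95% interval -0.81 to 0.20; SE; limma adjusted p = 0.994 and 0.396). Fdft1 shares 774 bases with Ctsb on the other strand, which had 27.1 to 76.3 FPKM, and whether the counting used strand is not given in the sources used here.

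Sqle encodes squalene epoxidase, which adds the oxygen that becomes the hydroxyl group of sterols (ENSMUSG00000022351; chromosome 15, 59315077 to 59331192, plus strand). It had 7.73, 6.10 and 2.11 FPKM in PBA1 to PBA3, 5.77, 5.10 and 4.41 FPKM in HU1 to HU3, and 7.78, 7.45 and 3.05 FPKM in GC1 to GC3. PBA3 and GC3 were the lowest of all, below every HU library, and the groups overlapped. The log2 difference was -0.07 ± 0.43 for PBA minus HU (95% interval -1.03 to 0.89) and -0.14 ± 0.43 for HU minus GC (95% interval -1.10 to 0.82; SE; limma adjusted p = 0.945 and 0.855). With PBA3 and GC3 both left out, PBA minus HU was 0.38 and HU minus GC -0.51. With all 9 libraries, scaled by non-mitochondrial reads, HU minus GC was 0.05.

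Cyp51 was the 1 member that passed the threshold, and only in HU against GC. Hmgcs1 (limma adjusted p = 0.0519), Dhcr7 (0.130) and Fdft1 (0.396) were also lower there without overlap, and no test compared the members with each other. Cyp51 encodes lanosterol demethylase, the cytochrome P450 that acts on the first sterol of the pathway (ENSMUSG00000001467, chromosome 5, 4081145 to 4104746, minus strand). Cyp51 had 38.3, 37.0 and 15.4 FPKM in PBA1 to PBA3, 14.5, 13.2 and 11.5 FPKM in HU1 to HU3, and 36.9, 51.8 and 26.6 FPKM in GC1 to GC3. The HU libraries were the 3 lowest of the 9 and overlapped neither other group, and PBA3 was the closest to them. These values rested on 181 to 383 reads in HU libraries, 424 to 4222 reads in PBA libraries and 1287 to 5483 reads in GC libraries.

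Cyp51 fell in HU kidneys, at 0.340 times the GC mean. The log2 difference of HU minus GC was -1.44 ± 0.38 (SE; 95% interval -2.30 to -0.59; limma adjusted p = 0.0435). The call was lost without PBA1 (0.0549), HU1 (0.0720), HU2 (0.0788), HU3 (0.102), GC1 (0.139), GC2 (0.137) or GC3 (0.0816), the values being limma adjusted p, and was kept without PBA2 (0.0486) or PBA3 (0.00886). With the mitochondrial share in the model the difference was -0.52 (limma adjusted p = 0.376), and that share did not overlap between HU and GC libraries. Against HU, the PBA mean was 2.31 times as high, with a log2 difference of 1.05 ± 0.38 (SE; 95% interval 0.19 to 1.91; limma adjusted p = 0.171), which did not pass. Without PBA3 it was 1.46 with a limma adjusted p of 0.0194, and with the mitochondrial share in the model 0.21 (limma adjusted p = 0.725).

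Dhcr7 encodes the dehydrocholesterol reductase that closes one branch of the pathway with cholesterol itself (ENSMUSG00000058454; chromosome 7, 143823145 to 143848410, plus strand). It had 2.72, 3.33 and 0.524 FPKM in PBA1 to PBA3, 0.345, 0.829 and 1.60 FPKM in HU1 to HU3, and 2.83, 2.50 and 3.08 FPKM in GC1 to GC3. All HU libraries lay below all GC libraries, and PBA3 lay within the HU range, below the other PBA libraries. The lowest of these values rested on few reads, namely 19 in PBA3 and 12, 15 and 63 in HU1, HU2 and HU3. HU minus GC was -1.03 ± 0.41 on the log2 scale (SE; 95% interval -1.95 to -0.11; limma adjusted p = 0.130), and -1.70 with a pseudocount of 0.1. PBA minus HU was 0.65 ± 0.41 (SE; limma adjusted p = 0.409), and HU against GC passed only without PBA3 (limma adjusted p = 0.0360) among the alternatives tried.

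**Figure D2:**
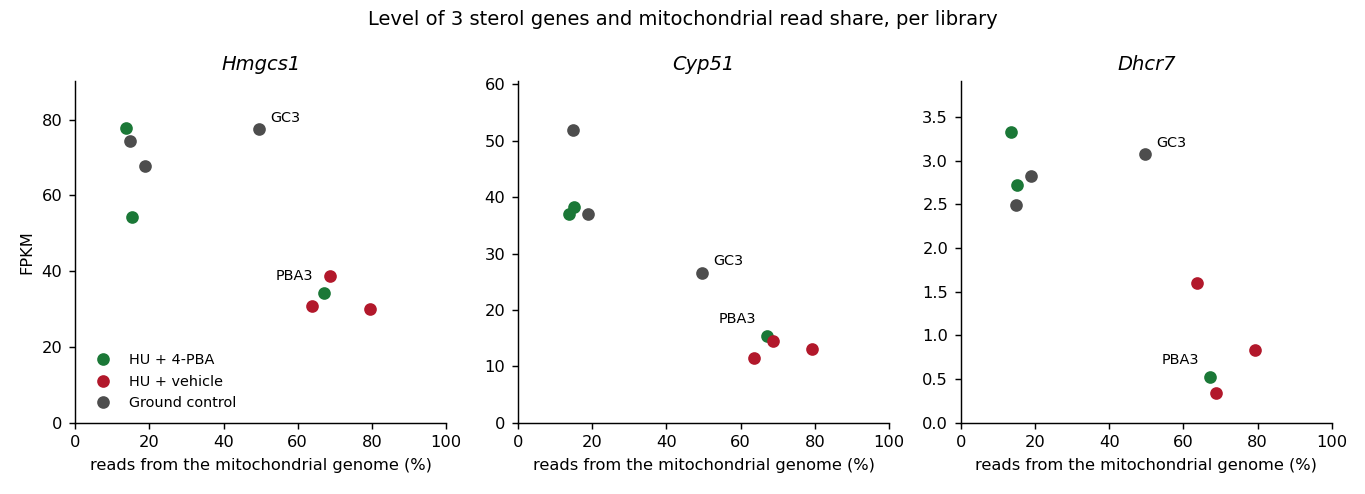
Level (FPKM) of Hmgcs1, Cyp51 and Dhcr7 in each library against the percentage of its reads from the mitochondrial genome, with 1 point per library coloured by group (HU + 4-PBA, HU + vehicle, ground control). PBA3, at 67.1%, lies beside the HU libraries in all 3 panels, while GC3, at 49.7%, has the highest Hmgcs1 of the ground controls and the lowest Cyp51.

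In each of these 3 genes the level of PBA3 was nearer to HU than to PBA1 and PBA2, as were its mitochondrial share (67.1%), its proximal tubule marker sum and its fibroblast marker sum given above. In HU against GC, 9 of 11 proximal tubule markers were lower without overlap and 7 of 7 fibroblast markers higher without overlap. Of all genes tested, 37.7% did not overlap in either direction. With the mitochondrial share in the model HU minus GC was -0.64 for Hmgcs1 and -0.27 for Dhcr7 (limma adjusted p = 0.332 and 0.786), beside the value for Cyp51 above. The part of the marker sums in these levels was not tested.

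Neither regulator passed the test in any comparison. Srebf2, which encodes SREBP2 (ENSMUSG00000022463; chromosome 15, 82147181 to 82205379, plus strand), had 10.4, 6.71 and 3.53 FPKM in PBA1 to PBA3, 3.38, 8.41 and 6.11 FPKM in HU1 to HU3, and 5.58, 7.15 and 5.77 FPKM in GC1 to GC3. PBA1 was highest and HU1 lowest, with PBA3 close to HU1, and the GC libraries lay inside the range of both other groups. The log2 difference was 0.15 ± 0.39 for PBA minus HU (95% interval -0.72 to 1.01) and -0.10 ± 0.39 for HU minus GC (95% interval -0.97 to 0.76; SE; limma adjusted p = 0.861 and 0.886). HU minus GC had the other sign when scaled by non-mitochondrial reads (0.09). SREBP2 acts after it is cut, so the level of its transcript is not a measure of its activity.

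Insig1 encodes a protein that retains SCAP and SREBP2 in the endoplasmic reticulum and is itself a target of SREBP2 (ENSMUSG00000045294; chromosome 5, 28071363 to 28078662, plus strand). It had 7.72, 4.31 and 6.17 FPKM in PBA1 to PBA3, 10.0, 4.67 and 7.15 FPKM in HU1 to HU3, and 5.18, 9.79 and 3.51 FPKM in GC1 to GC3. HU1 and GC2 were the highest and GC3 the lowest, and all groups overlapped. The log2 difference was -0.21 ± 0.38 for PBA minus HU (95% interval -1.06 to 0.65) and 0.25 ± 0.38 for HU minus GC (95% interval -0.60 to 1.11; SE; limma adjusted p = 0.800 and 0.692). Without GC3, HU minus GC was -0.03, and with scaling by total reads it was -0.64.

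Counted over the list, 1 of 8 members was lower and 0 were higher in HU against GC at a limma adjusted p under 0.05. Of all 12642 genes tested, 4.9% were lower and 5.32% higher (10.2% in either direction), so that 1 of 8 is close to the background. HU and GC libraries did not overlap in 4 of 8 members (Hmgcs1, Fdft1, Cyp51 and Dhcr7, all lower in HU), against 37.7% of all genes. The median log2 difference of the members was -0.22, against -0.03 over all genes, and 6 of 8 were below 0. In PBA against HU 0 of 8 members passed, against 2.69% of all genes. The groups did not overlap in 1 member, Cyp51, against 20.3% of all genes, and the median was 0.08, against 0.02. Both comparisons use the HU libraries, so a difference in one and a difference of the other sign in the other are not independent.

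In PBA against GC 0 of 8 members passed, and 0% of all genes did in limma, where 165 genes had an unadjusted p under 0.05 (limma-voom on recovered reads also called 0). Hmgcs1 differed by -0.47 ± 0.32 and Cyp51 by -0.39 ± 0.38 for PBA minus GC on the log2 scale (SE), with 95% intervals of -1.17 to 0.24 and -1.25 to 0.46. The other 6 members lay between -0.38 (Dhcr7) and 0.24 (Idi1). The groups did not overlap in 1 member, Fdft1, which was lower in PBA kidneys, against 8% of all genes. Without PBA3 the difference was 0.02 for Cyp51 and 0.08 for Dhcr7.

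**Figure D3:**
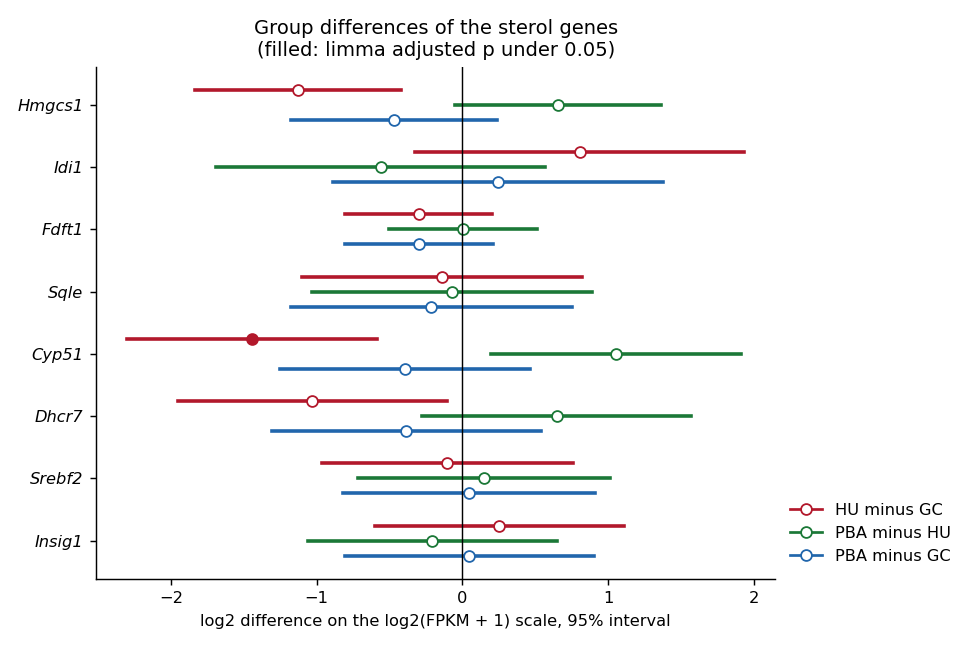
Log2 difference of each of the 8 genes for PBA minus HU, HU minus GC and PBA minus GC on log2(FPKM + 1), with 95% intervals that are not adjusted for the number of genes; a filled point has a limma adjusted p under 0.05. Only Cyp51 in HU minus GC is filled, at -1.44.

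Because scaling between libraries can shift all genes at once, each member was also set against the geometric mean of the 8 in the same library. On that log2 scale Cyp51 lay at 1.98, 2.32 and 1.81 in PBA1 to PBA3, 1.36, 1.42 and 0.777 in HU1 to HU3, and 2.27, 2.40 and 1.98 in GC1 to GC3. Every HU library was thus below every PBA and every GC library, with mean differences of 0.85 for PBA minus HU and -1.03 for HU minus GC. Hmgcs1 (-0.67) and Dhcr7 (-1.38) were likewise lower in every HU library than in every GC library, and the other 5 members overlapped between HU and GC. On FPKM, 37.7% of all genes tested did not overlap, and no such share was computed on this scale. The geometric mean uses no pseudocount and weights all 8 alike, Dhcr7 with 12 and 15 reads in HU1 and HU2 and Idi1 with 12 reads in HU2 included. Hmgcs1 and Cyp51 together made up 70.8%, 81.3% and 71.7% of the summed FPKM of the 8 genes in PBA1 to PBA3, 64.0%, 63.4% and 57.1% in HU1 to HU3, and 78.6%, 77.2% and 81.9% in GC1 to GC3. Idi1 had a mean difference of 1.50 for HU minus GC, with overlap. On this scale the differences of the 8 members sum to 0, so that lower values in some go with higher values in others, and no test compared the members with each other.

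**Figure D4:**
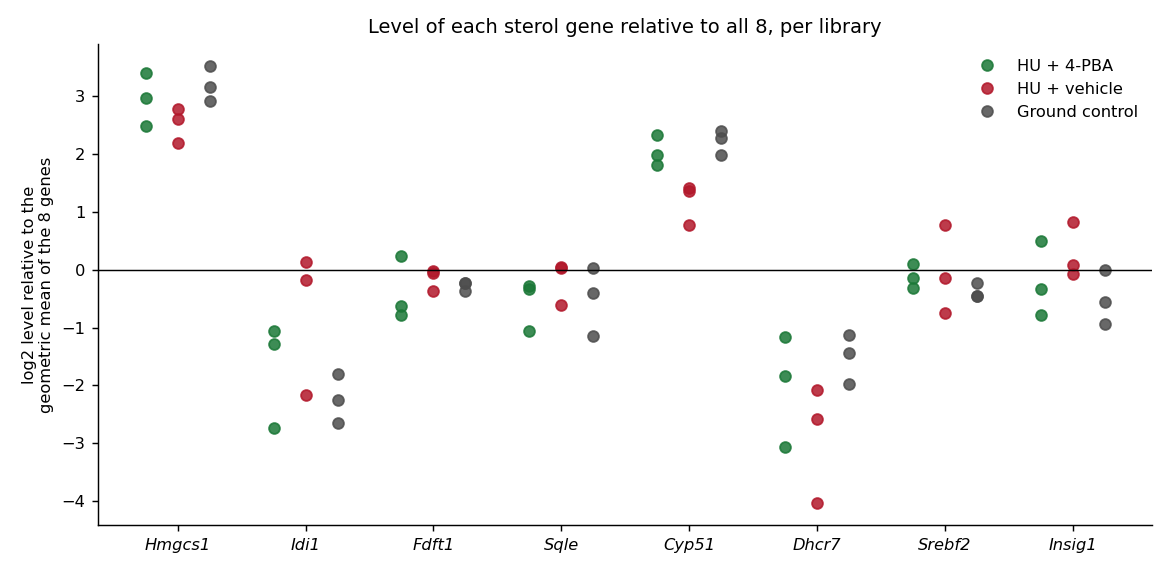
Level of each gene relative to the geometric mean of all 8 in the same library (log2), with 1 point per library, HU + 4-PBA left of HU + vehicle and ground control. HU libraries lie below all GC libraries in Hmgcs1, Cyp51 and Dhcr7, and below all PBA libraries in Cyp51.

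Across the 9 libraries the profiles of the members, as log2(FPKM + 1) centred on each gene's mean, were most alike for Hmgcs1 and Cyp51 (root mean square difference 0.339) and for Hmgcs1 and Dhcr7 (0.346), and least alike for Idi1 and Cyp51 (1.18), out of 28 pairs. The mean profile of the 8 was highest in GC2 (0.45) and PBA1 (0.40) and lowest in PBA3 (-0.48) and HU2 (-0.37). The 5 protein-coding genes closest to that mean profile were Ddx1 (0.0972), Itm2b (0.108), Itgb8 (0.110), Igf2r (0.118) and Copb1 (0.128). The members themselves lay at 0.227 for Fdft1 to 0.721 for Idi1 from their own mean. The 5 genes were picked as the closest of all tested and the members were not, so their distances cannot be compared.

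The other enzymes of the pathway, a list of 14 genes of which 13 could be tested, gave more falls. In HU against GC 3 of the 13 fell and 0 rose at a limma adjusted p under 0.05, namely Tm7sf2, Nsdhl and Ebp. Together with Cyp51 these 4 genes made 4 of 19 tested enzymes, against 4.9% of all genes, and the median log2 difference of the 19 was -0.32, against -0.03 over all genes. The lists were chosen with earlier results of these data known, so these shares and medians are no independent comparison with all genes. All 4 act after lanosterol has formed. Of the 11 enzymes from squalene epoxidation on, 4 fell and 0 rose (median -0.68). Of the 8 counted as up to squalene 0 fell and 0 rose (median 0.11), with 4 above 0 and 4 below. These 8 include Ggps1 (geranylgeranyl diphosphate synthase), which is on a side branch that does not lead to squalene. Its difference was the highest of the 8 (1.15), and without it the middle value of the rest was that of Fdft1 (-0.30). The 4 below 0 were Mvd (-1.63), Hmgcs1 (-1.13), Acat2 (-0.89) and Fdft1 (-0.30), each lower in every HU than in every GC library. Of those above 0, Mvk (0.60), Pmvk (0.53) and Ggps1 were higher in every HU than in every GC library, and Idi1 (0.80) overlapped. Over all genes tested, HU and GC libraries did not overlap in 37.7%. Whether the 2 stretches of the pathway differ was not tested, and the split did not hold in every alternative. Of the 8 up to squalene, Acat2, Hmgcs1 and Mvd were lower with scaling by total reads (median -0.76), and Acat2 and Hmgcs1 with PBA3 and GC3 both left out (median -0.024). Hmgcs1 was lower and Ggps1 higher with limma-voom on recovered reads, and Ggps1 was also higher without HU2. Hmgcs1 alone was lower with only the 6 libraries compared, without PBA2 and without PBA3.

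Ebp encodes the sterol isomerase that moves a double bond in the ring (mean level 3.46 ± 1.80 FPKM in HU and 26.0 ± 7.46 FPKM in GC kidneys; SD, n = 3 each). It had 28.1, 30.5 and 4.65 FPKM in PBA1 to PBA3, 1.88, 3.06 and 5.42 FPKM in HU1 to HU3, and 29.8, 30.7 and 17.4 FPKM in GC1 to GC3. PBA1 and PBA2 were in the GC range and PBA3 in the HU range. HU minus GC was -2.63 ± 0.62 (SE; limma adjusted p = 0.0306) and PBA minus HU 2.03 ± 0.62 (SE; limma adjusted p = 0.118), or 2.84 without PBA3 (limma adjusted p = 0.00374).

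Nsdhl encodes a dehydrogenase that helps remove methyl groups from lanosterol products. It had 9.17, 10.9 and 5.96 FPKM in PBA1 to PBA3, 3.64, 4.73 and 2.33 FPKM in HU1 to HU3, and 10.7, 14.8 and 7.46 FPKM in GC1 to GC3. All HU libraries were below all others, with HU minus GC at -1.38 ± 0.33 (SE; limma adjusted p = 0.0330) and PBA minus HU at 1.08 ± 0.33 (SE; limma adjusted p = 0.121). Tm7sf2, a sterol reductase gene, averaged 1.50 ± 0.641 FPKM in PBA, 0.363 ± 0.374 FPKM in HU and 2.28 ± 0.279 FPKM in GC kidneys (SD, n = 3 each), and HU minus GC was -1.30 ± 0.31 (SE; limma adjusted p = 0.0313).

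None of the 4 falls held in every alternative. The 4 calls of HU against GC became 0 without HU1, HU3, GC1, GC2 or GC3 in turn, 2 without HU2 and 1 without PBA1, and were 6 without PBA3 and 5 without PBA2. With the mitochondrial share in the model 0 enzymes passed, and likewise without a filter on low values. With limma-voom on recovered reads Ebp and Nsdhl lost their calls, which left 2 of the 11 later enzymes, with a pseudocount of 0.1 Tm7sf2 lost its call, and with scaling by non-mitochondrial reads Cyp51 did. The call of each of the 4 was lost when any 1 GC library was left out, and with each of the 9 libraries left out in turn the differences were -1.68 to -1.21 for Cyp51, -1.50 to -1.10 for Tm7sf2, -1.61 to -1.16 for Nsdhl and -2.94 to -2.36 for Ebp.

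Other enzymes of the list did not pass in HU against GC. Mvd, which makes isopentenyl diphosphate, averaged 8.31 ± 5.80 FPKM in HU and 22.8 ± 3.96 FPKM in GC kidneys (SD, n = 3 each), a difference of -1.63 with a limma adjusted p of 0.129. Lss (lanosterol synthase, 0.21) and Msmo1 (sterol methyl oxidase, -0.32) had limma adjusted p of 0.639 and 0.594. Fdps, which encodes farnesyl diphosphate synthase and has processed pseudogenes in the mouse genome, was not tested, as it had 0 to 0.611 FPKM.

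**Figure D5:**
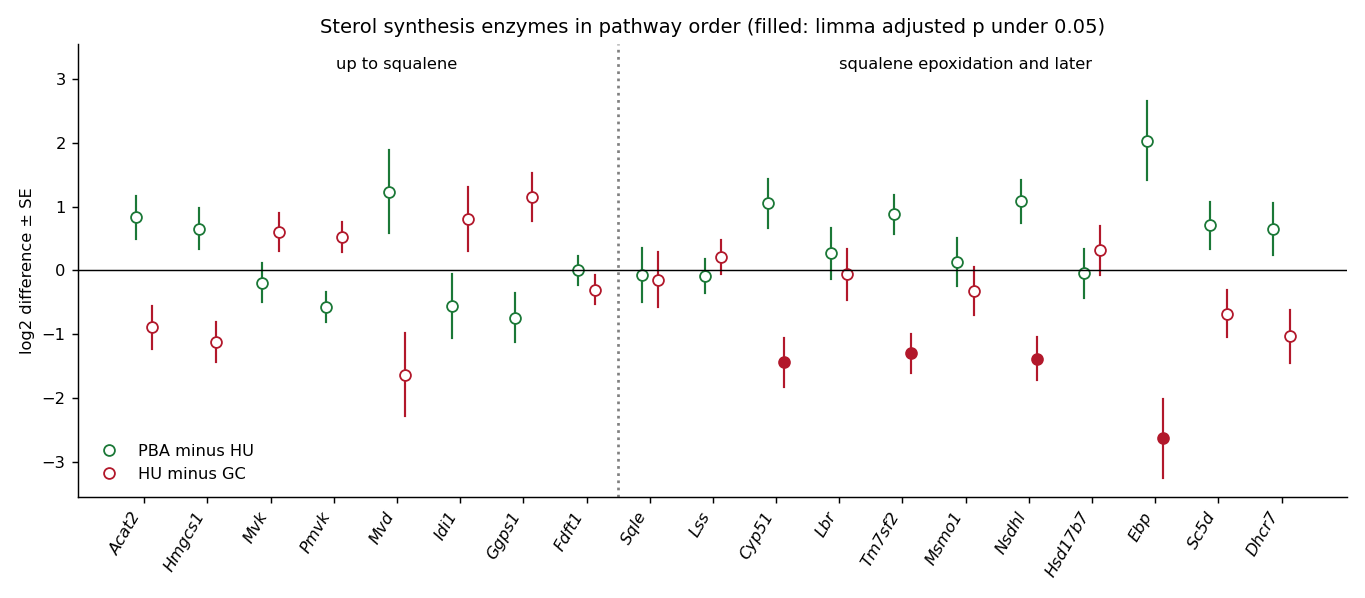
Log2 difference ± SE on log2(FPKM + 1) of the 19 tested synthesis enzymes in pathway order, for PBA minus HU and HU minus GC, with a filled point where the limma adjusted p was under 0.05; the dotted line parts the enzymes up to squalene from those after it. The filled points are Cyp51, Tm7sf2, Nsdhl and Ebp in HU minus GC, all after squalene, and no PBA minus HU point is filled. Ggps1, left of the dotted line, is on a side branch that does not lead to squalene.

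Among 12 uptake and intracellular transport genes, of which 10 were tested, 1 fell and 0 rose in HU against GC, which is close to the share over all genes (10.2% in either direction). The gene that fell was Lrp2, which encodes the proximal tubule receptor megalin. It had 29.5, 32.0 and 9.41 FPKM in PBA1 to PBA3, 3.45, 11.9 and 9.04 FPKM in HU1 to HU3, and 36.4, 34.4 and 29.5 FPKM in GC1 to GC3, and HU minus GC was -2.04 ± 0.50 (SE; limma adjusted p = 0.0350). Its HU and PBA3 levels were low in the libraries in which the proximal tubule marker sum was low, and the part of those cells was not tested. Scarb1, the HDL receptor (0.95), Npc1 (0.37) and Npc2 (0.29), which export cholesterol from lysosomes, did not pass in HU against GC (limma adjusted p = 0.0804, 0.383 and 0.612).

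Lrp1, which encodes another large endocytic receptor of the family of megalin, is named after its values were seen. It had 2.84, 1.45 and 20.0 FPKM in PBA1 to PBA3, 7.23, 39.0 and 38.0 FPKM in HU1 to HU3, and 1.86, 2.19 and 2.89 FPKM in GC1 to GC3. All HU libraries lay above all GC libraries, and PBA3 lay within the HU range. HU minus GC was 2.83 ± 0.81 (SE; limma adjusted p = 0.0546), which did not pass, and PBA minus HU was -2.01 ± 0.81 (SE; limma adjusted p = 0.206). HU minus GC passed with scaling by non-mitochondrial reads, limma-voom, only the 6 libraries compared, the replicate block, and without PBA2, PBA3 or HU1 or PBA3 and GC3 together, at limma adjusted p of 0.0117 to 0.0475. In the other alternatives it did not pass, and with the mitochondrial share in the model it was 1.09 (limma adjusted p = 0.507). The fibroblast marker sum was high in HU libraries and PBA3 too, and its part was not tested.

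Of 11 genes that act on SREBP or on sterol-regulated degradation, 1 fell and 0 rose in HU against GC, close to the 10.2% of all genes called in either direction. This was Pgrmc1, which encodes a haem-binding partner of P450 enzymes that also binds INSIG1, at 36.6 ± 6.40 FPKM in HU and 76.6 ± 14.4 FPKM in GC kidneys (SD, n = 3 each; -1.04, limma adjusted p = 0.0479). Scap, the escort of SREBP2, averaged 3.10 ± 0.796 FPKM in HU and 7.04 ± 0.427 FPKM in GC kidneys without overlap (SD, n = 3 each; -0.99, limma adjusted p = 0.0888). Srebf1, the sister factor for fatty acid genes, averaged 1.19 ± 0.539 FPKM in HU and 3.52 ± 0.788 FPKM in GC kidneys (SD, n = 3 each; -1.06, limma adjusted p = 0.0818). Insig2 (0.52) and Mylip, a sterol-regulated ubiquitin ligase gene (0.54), had limma adjusted p of 0.226 and 0.414.

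Of 13 genes of sterol efflux, esterification and oxysterols, 11 were tested, 1 fell and 0 rose in HU against GC, again close to the background of 10.2%. The gene that fell was Nr1h3, which encodes the oxysterol receptor LXR alpha. It averaged 14.5 ± 3.59 FPKM in PBA, 6.98 ± 0.911 FPKM in HU and 18.0 ± 1.17 FPKM in GC kidneys (SD, n = 3 each), with HU minus GC at -1.26 ± 0.24 (SE; limma adjusted p = 0.0189). The LXR targets Abca1 (-0.49) and Abcg1 (0.34), which export cholesterol, and Apoe (1.16) did not pass (limma adjusted p = 0.363, 0.562 and 0.211).

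Of 14 fatty acid synthesis genes under SREBP1, Acss2 (acetyl-CoA synthetase) fell and Mid1ip1 (an activator of acetyl-CoA carboxylase) rose in HU against GC, by log2 differences of -1.37 and 1.31 (limma adjusted p = 0.0287 and 0.0481). These 2 of 14 are close to the 4.9% of all genes lower and 5.32% higher. With scaling by total reads the difference of Mid1ip1 was 0.35 (limma adjusted p = 0.595). Fasn (-1.65), Scd1 (-0.93) and Acly (0.66) did not pass (limma adjusted p = 0.195, 0.482 and 0.159). Scd1 had 61.1 FPKM in PBA3 and 106 FPKM in GC2, against 9.89 to 16.5 FPKM in the other 7 libraries, and Fasn was also highest in PBA3 (35.0 FPKM) and GC2 (21.1 FPKM). Adipocyte markers summed to 403 FPKM in PBA3 and 384 FPKM in GC2, against 8.53 to 16.8 FPKM elsewhere, and their part in the levels of Scd1 and Fasn was not tested. Insig1 had its highest GC level in GC2 too (9.79 FPKM), while PBA3 (6.17 FPKM) lay between PBA2 and PBA1.

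In PBA against HU and in PBA against GC 0 genes of any of these 5 lists passed. The 9 genes called in HU against GC over all lists, Cyp51 included, were each lost without GC1, without GC2 and without GC3, and 0 of 9 passed with the mitochondrial share in the model. Without PBA3 9 of 9 passed.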

How the data were processed

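Reads of poly(A)-selected, dUTP-marked, paired-end kidney libraries were processed with CASAVA, cutadapt and HISAT2 on mm10, per the submitters' processing notes; the sources used here give no versions, read counter or strand setting. The authors deposited 1 table of 54532 genes with 1 value per gene and library. The values behave as FPKM set by the authors: multiplied by gene length and by 1 constant per library, 100% of them came out as whole reads (tolerance 0.01), which gave the depths. FPKM do not refer to total reads, as that constant followed neither the totals nor the non-mitochondrial reads exactly. Replicate libraries differed by more than sampling noise, and all 9 entered the fit.

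From these values limma 3.58.1 (R 4.3.3, empirical Bayes with a trend) was run on log2(FPKM + 1) for the 12642 genes that reached 1 FPKM in 3 or more libraries, all 9 libraries in 1 fit of 3 groups without a block. A call is a Benjamini-Hochberg adjusted p under 0.05 over all genes tested. Fold changes on this scale understate those of low genes. The 8 members passed this filter (8 of 8). The code was tested on simulated data. Members, 5 pathway lists (64 genes) and 10 marker lists were chosen with earlier results of these data known. All members, each list gene past the threshold and 17 further genes of the lists were to be named. Lrp1, Acat2, Ggps1, Mvk and Pmvk were added after their values were seen. In addition, 3 genes of the lists are not reported here, and the list counts and medians leave them out. Alternatives were another pseudocount, no filter, scaling by total or non-mitochondrial reads, limma-voom on recovered reads, only the 6 libraries compared, a replicate block, the mitochondrial share as a covariate, each library left out, and PBA3 and GC3 both left out. Positions are mm10 from the deposited table, promoters RefSeq on GRCm38.p6. Figures used Python 3.11.15 and matplotlib 3.10.9.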

Additional observations from a re-analysis of the deposited data

How the results depend on the processing

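With 3 libraries a group, 12 to 63 reads behind Dhcr7 in HU kidneys and a mitochondrial share that did not overlap between HU and GC, group and composition cannot be told apart by the covariate. Genes called in HU against GC (1292) numbered 238 without a filter, 2339 with scaling by total reads (median of all genes -0.78, and 0.71 in PBA against HU) and 99 with the mitochondrial share as a covariate. In PBA against HU (340) they numbered 145 with a pseudocount of 0.1, 17 without a filter, 722 with total reads, 17 with only the 6 libraries, 121 with the covariate and 1118 with PBA3 and GC3 both left out; PBA against GC gave 0 throughout. Synthesis enzymes called lower (4) were 0 without a filter, 7 with total reads, 0 with the covariate, and 3 each with a pseudocount of 0.1 (Tm7sf2 lost), non-mitochondrial reads (Cyp51 lost) and limma-voom (Ebp and Nsdhl lost, Hmgcs1 gained, and Ggps1 called higher).

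Cyp51 in HU against GC lost its call without a filter (-1.44, limma adjusted p = 0.106), with scaling by non-mitochondrial reads (-1.23, 0.0565) and with the covariate (-0.52). Hmgcs1 did not pass in 5 of the 9 alternatives other than leaving out 1 library (limma adjusted p up to 0.332). It passed with total reads (-2.16), limma-voom (-1.15), only the 6 libraries (-1.13) and PBA3 and GC3 left out (-1.08). With those 2 left out Cyp51 in PBA against HU passed (1.46, limma adjusted p = 0.0151). In 40 of 432 member alternatives the sign turned, in none of them past the threshold. In HU against GC, Sqle was 0.050 and Srebf2 0.087 with non-mitochondrial reads, 0.96 and 0.45 with the covariate, and Insig1 -0.64 with total reads and -0.032 with PBA3 and GC3 left out. In PBA against HU, Sqle was 0.78 with total reads, 0.050 with limma-voom and 0.38 with both left out, Idi1 0.060 and Insig1 0.61 with total reads, and Fdft1 -0.11 with non-mitochondrial reads, -0.015 with limma-voom and -0.10 with the covariate, under which Srebf2 was -0.35 and Dhcr7 -0.041. In PBA against GC, Insig1 was -0.032 with total reads, -0.016 with limma-voom and -0.26 with both left out, and Dhcr7 0.13 with both left out. Of the other genes in HU against GC, total reads turned Lss (-0.33), Npc1 (-0.15), Npc2 (-0.66), Insig2 (-0.38), Mylip (-0.26), Abcg1 (-0.090) and Acly (-0.30), the covariate Msmo1 (0.058), Abcg1 (-0.028) and Apoe (-0.0022), and both left out Npc2 (-0.064). Mid1ip1 in PBA against HU was 0.61 with total reads and 0.065 with the covariate. The cause was not tested.

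With each library left out in turn, genes called ranged from 69 to 2360 in HU against GC and from 36 to 1320 in PBA against HU, and enzymes called lower from 0 to 6. In HU against GC, Cyp51 ranged from -1.68 to -1.21, Hmgcs1 from -1.24 to -1.06, Dhcr7 from -1.27 to -0.80, Insig1 from -0.032 to 0.60, Sqle from -0.51 to 0.054, Srebf2 from -0.35 to 0.20, Npc2 from -0.064 to 0.56 and Scd1 from -1.47 to 0.059. In PBA against HU, Cyp51 ranged from 0.83 to 1.46, Hmgcs1 from 0.38 to 0.96, Fdft1 from -0.045 to 0.052, Insig1 from -0.45 to 0.026, Sqle from -0.37 to 0.38, Srebf2 from -0.17 to 0.50 and Mid1ip1 from -0.60 to 0.037. In PBA against GC, Cyp51 ranged from -0.63 to 0.019, Dhcr7 from -0.67 to 0.081, Idi1 from -0.078 to 0.54, Insig1 from -0.24 to 0.39, Sqle from -0.58 to 0.23 and Srebf2 from -0.27 to 0.39.

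Libraries share only a replicate number: same-numbered libraries did not deviate together (r from -0.196 to 0.288 across genes). With that number as a replicate block, 904 genes were called in HU against GC and 137 in PBA against HU; Cyp51 kept its call, Lrp1 gained one (0.0404), while Pgrmc1 (limma adjusted p = 0.0693), Acss2 (0.0508) and Mid1ip1 (0.0828) lost theirs.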

Other observations

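The marker sums not given above were as follows. Thick limb and distal tubule markers (6 genes) summed to 166 to 725 FPKM in PBA libraries, 138 to 261 FPKM in HU libraries and 303 to 501 FPKM in GC libraries. Collecting duct markers (8 genes) summed to 210 to 408 FPKM in PBA, 117 to 276 FPKM in HU and 234 to 307 FPKM in GC libraries. Endothelial markers (6 genes) summed to 54.7 to 117 FPKM in PBA, 100 to 209 FPKM in HU and 49.6 to 76.2 FPKM in GC libraries. Only 1 of the 6, Plvap, was higher in HU than in GC libraries without overlap, against 37.7% of all genes tested without overlap in either direction. It had 82.3 to 156 FPKM in HU and 30.2 to 46.1 FPKM in GC libraries, and the rest overlapped. Macrophage markers (6 genes) summed to 39.7 to 67.9 FPKM in PBA, 14.9 to 47.1 FPKM in HU and 32.9 to 42.6 FPKM in GC libraries. Hepatocyte markers (10 genes) summed to 32.6 to 119 FPKM in PBA, 19.0 to 130 FPKM in HU and 80.6 to 131 FPKM in GC libraries, highest in HU1 among the unloaded mice given vehicle. This sum mixes markers of opposite direction, as in HU against GC 3 were lower (Apoc3, Ttr and Serpina1a) and 2 higher (Alb and Ahsg) without overlap. The share over all genes tested was 37.7% in either direction. Alb had 42.6, 9.60 and 4.34 FPKM in HU1 to HU3, against 1.03 to 1.62 FPKM in GC libraries. Ahsg had 9.38, 1.32 and 0.268 FPKM in HU1 to HU3, against 0 to 0.0234 FPKM in GC libraries. Urothelium markers (6 genes) summed to 31.6 to 160 FPKM in PBA, 7.58 to 46.1 FPKM in HU and 2.36 to 20.4 FPKM in GC libraries. No value of Cyp51 or Hmgcs1 was tested against these sums.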
